A study of Arabidopsis thaliana with 9 samples.

Results

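PP4R3A (AT3G06670) encodes a regulatory subunit of protein phosphatase 4 (PP4), a serine/threonine phosphatase found across eukaryotes. The results below compare Arabidopsis thaliana seedlings carrying the allele pp4r3a-2 with wild-type seedlings of the accession Col-0, gene by gene, from the exon counts of all 3 pp4r3a-2 libraries and all 3 Col-0 libraries, which are 6 of the 9 libraries of the study. The other 3 libraries came from seedlings with a second allele, pp4r3a-1, and are used where the alleles differ. All seedlings were 12 days old and had grown on half-strength Murashige and Skoog plates in 16 h light and 8 h dark. Polyadenylated RNA was extracted from 3 biological replicates of each genotype. Seedlings hold many cell types, so fewer cells of a type and less RNA per cell cannot be told apart. The labels give neither the kind of mutation in each allele nor the hour of harvest.

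PP4 is a complex in which a catalytic subunit is directed to its substrates by regulatory subunits, and subunits of the R3 kind hold substrates. In animals and yeast the enzyme acts in DNA damage recovery and in transcription, and in plants it has been linked to the making of microRNAs, short RNAs that direct the cleavage or repression of complementary messenger RNAs. The study's title places PP4 in transcription and processing of primary microRNA transcripts. Those transcripts were not analysed here; the messenger RNAs of the microRNA machinery and of its target genes are given below.

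The targeted gene was lower in every pp4r3a-2 library. PP4R3A (AT3G06670) had 18.7, 18.2 and 18.3 CPM in pp4r3a-2, against 81.2, 79.1 and 81.6 CPM in Col-0. CPM, the usual per-library scaling of counts, puts libraries of unequal depth on one scale, and the levels of different genes are not comparable in this unit because it does not correct for gene length. The groups did not overlap, and the log2 change was -2.13 ± 0.049 (SE), adjusted p = 2.75e-30 in edgeR's quasi-likelihood test, whose p-values were adjusted over all 22631 genes tested. The gene had 59.2, 64.5 and 63.1 CPM in pp4r3a-1, and the log2 difference of pp4r3a-2 over pp4r3a-1 was -1.76 ± 0.05 (SE), adjusted p = 1.42e-26. Among genes of other PP4 subunits, PPX2 (AT5G55260), which encodes a catalytic subunit, fell by 0.28 on the log2 scale, PP4R2L (AT5G17070), for another regulatory subunit, rose by 0.22, and the second catalytic gene PPX1 (AT4G26720) had a value of 0.07 that did not pass (adjusted p 0.226). The counts cover all exons of a gene and do not show which part of the transcript remained.

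The libraries held 23879676, 25802186 and 20733294 exon counts in pp4r3a-2 and 25328467, 25642851 and 23343990 in Col-0. A count of 3 corresponded to 0.116 to 0.149 CPM in these 6 libraries. Replicates agreed closely, with a biological coefficient of variation of 0.0388. The pp4r3a-2 replicate 3 stood apart: chloroplast-encoded genes took 0.962% of its counts and rRNA loci 0.503%. In the other 5 of the 6 libraries these shares were 0.427% to 0.525% and 0.113% to 0.208%. Of 13273 genes with at least 10 CPM, 19 were at least 1.5-fold higher in this library than in the mean of pp4r3a-2 replicates 1 and 2 and 0 were lower. By the same measure pp4r3a-2 replicate 1 had 0 higher and 27 lower, and Col-0 replicate 1 had 9 and 7. This count thus did not set replicate 3 apart. Because of its chloroplast and rRNA shares, every comparison was repeated without pp4r3a-2 replicate 3. Strand and counting method are not given in the sources used here, so the counts of genes that overlap another annotated gene are uncertain; among the genes named below these are ARR8, ASN1, AT4G15242, AT4G15245, ATR, BHLH101, BHLH38, BOA, CAT2, CLPB3, CO, COR15B, CPD, CSD1, CYP71A13, DCL1, DIN10, DIN4, DREB2A, ELF3, FER1, FER4, FKF1, FLC, FRK1, GMI1, HSFC1, HSP101, HSP17.4, LHCA4, LHCB2.3, LHCB3, LHCB6, LNK1, LNK2, LNK3, LNK4, LUX, MCM7, OLEO1, PPX1, RAB18, RCA, SBE2.1, SEP1, SIM, SMR5, SPL13, SPL3, TCP3, TIP3;1, TSO2, TT19, TT4, UPM1, WRKY33 and WRKY40.

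Most of the transcriptome passed the test. In pp4r3a-2, 8065 genes were higher than in Col-0 (35.6% of the genes tested) and 8093 were lower (35.8%) at an adjusted p under 0.05. Most of these changes were small: 9266 of the 16158 called genes changed by under 1.5-fold. At least 2-fold higher were 1913 genes (8.45%) and at least 2-fold lower 1412 (6.24%). These shares, with the 35.6% and 35.8% for all calls, are the background for the counts by gene list below. Larger changes leaned upward, with 646 genes past 4-fold above Col-0 and 234 past 4-fold below it, and 95 and 10 past 16-fold. In 73.6% of the genes tested the 3 values of pp4r3a-2 and the 3 values of Col-0 did not overlap. Without pp4r3a-2 replicate 3, 15180 of the 16158 calls were made again in the same direction, 0 in the opposite direction and 978 were lost. Of the 2-fold changes, 1851 of 1913 higher and 1336 of 1412 lower genes were again called past 2-fold.

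**Figure D1:**
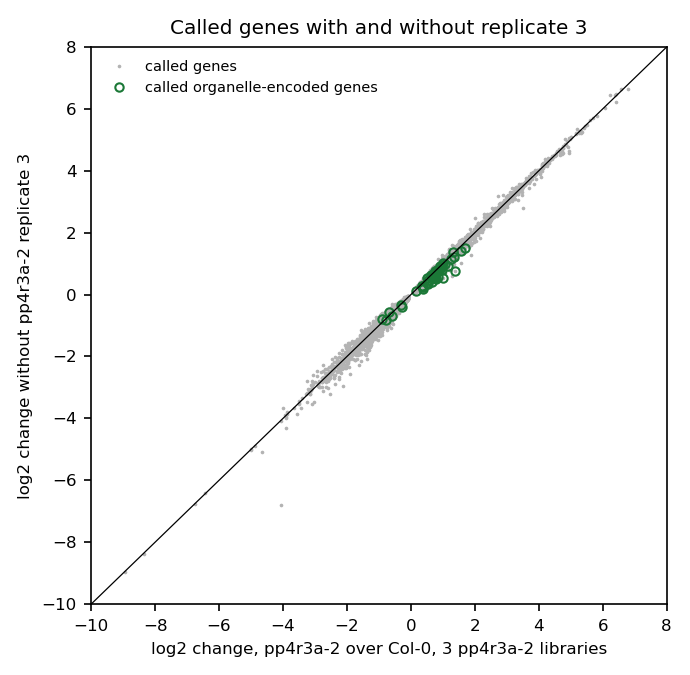
Each grey point is a gene called in pp4r3a-2 against Col-0, with its log2 change from all 3 pp4r3a-2 libraries on the x axis and from pp4r3a-2 replicates 1 and 2 only on the y axis, and green circles are genes encoded in the chloroplast or mitochondrion. Nearly all points lie on the diagonal line of equal values, and the organelle-encoded genes lie slightly below it.

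Rises were ranked among genes with at least 10 CPM in the higher genotype, at least 10 counts in every library of the lower one, calls with and without pp4r3a-2 replicate 3 and no overlapping gene, which leaves out genes near 0 in Col-0. The 10 largest of these came from several pathways. The defence marker gene PR1 (AT2G14610) had 40.6, 43.7 and 37.6 CPM in pp4r3a-2, against 1.06, 0.812 and 0.63 CPM in Col-0 (log2 change 5.60 ± 0.13 (SE), adjusted p = 8.78e-22). DFR (AT5G42800), encoding dihydroflavonol reductase of anthocyanin synthesis, had 166, 166 and 167 CPM in pp4r3a-2, against 3.96, 3.4 and 4.16 CPM in Col-0. The starch synthase gene GBSS1 (AT1G32900), whose enzyme makes amylose, had 105, 102 and 105 CPM in pp4r3a-2, against 2.62, 2.32 and 2.44 CPM in Col-0. In all 3 genes each pp4r3a-2 library lay far above each Col-0 library. The others were the anthocyanin genes LDOX and UF3GT, the clock gene CCA1, the late embryogenesis abundant gene M17 (AT2G41260), the alternative NAD(P)H dehydrogenase gene NDA1 (AT1G07180), SAG29 (AT5G13170), a sugar transporter gene linked to senescence, and CYP82C2 (AT4G31970), a cytochrome P450 gene, with log2 changes of 4.54 to 5.27 and adjusted p of at most 4.24e-26.

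The largest falls, ranked under the same conditions, were smaller. JMJD5 (AT3G20810), which encodes a jumonji-domain protein of the clock, had 8.95, 8.69 and 9.13 CPM in pp4r3a-2, against 151, 147 and 149 CPM in Col-0 (log2 change -4.06 ± 0.052 (SE), adjusted p = 5.66e-38). COR15A (AT2G42540), which encodes a chloroplast protein that protects membranes during freezing, had 16, 17.6 and 13.7 CPM in pp4r3a-2, against 139, 141 and 140 CPM in Col-0 (log2 change -3.14 ± 0.054 (SE), adjusted p = 1.6e-33). Both genes were low in every pp4r3a-2 library. AT2G33830, annotated as dormancy and auxin related, had 114, 112 and 106 CPM in pp4r3a-2, against 964, 969 and 951 CPM in Col-0. The myrosinase gene TGG2 (AT5G25980), whose enzyme releases the toxic products of glucosinolates, had 97.5, 96.5 and 104 CPM in pp4r3a-2, against 624, 639 and 638 CPM in Col-0. No pp4r3a-2 library reached the lowest Col-0 library in these genes. The remaining genes of this set were PRR3, MLP329 (AT2G01530), AT5G35740, AT5G46900, AT1G14250 and AT3G05727, with log2 changes of -2.92 to -2.66.

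**Figure D2:**
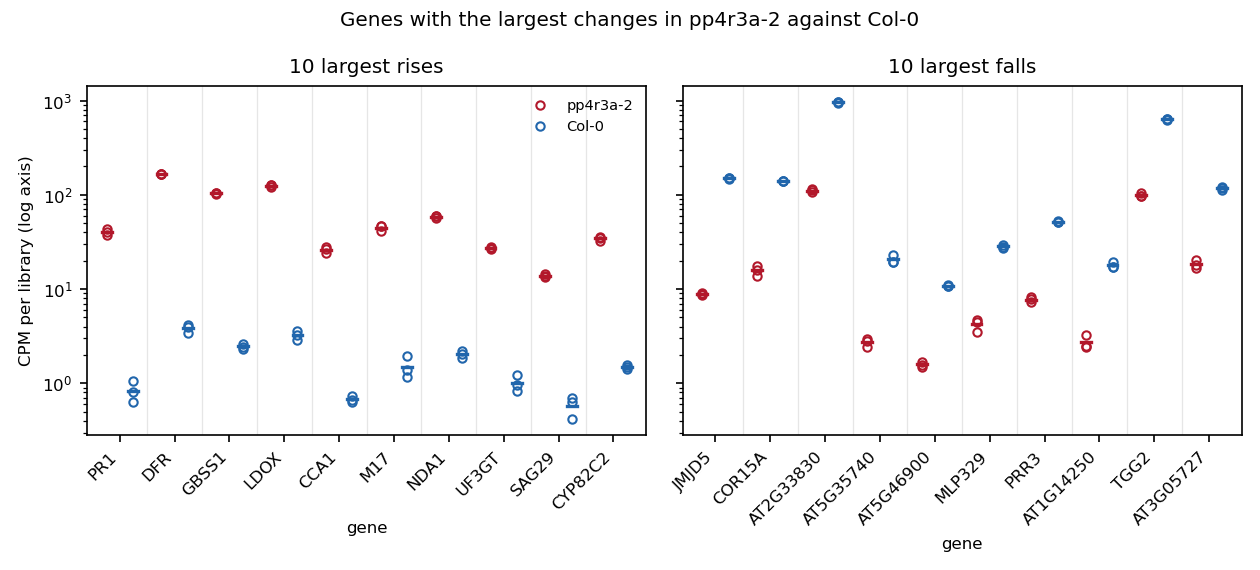
Exon counts in CPM (log axis) of the 10 largest rises and 10 largest falls among genes that met the conditions of the ranking, with a circle for each library and a line at the mean of 3 libraries, pp4r3a-2 in red and Col-0 in blue. The pp4r3a-2 and Col-0 circles do not overlap for any of the 20 genes, and the circles of a genotype lie close together.

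Among highly abundant transcripts, light-harvesting and chlorophyll synthesis genes gained the most CPM, and Rubisco small subunit genes, THI1 and TGG1 lost the most. LHCB1.1 averaged 3611 ± 134 CPM in pp4r3a-2 and 1230 ± 27.3 CPM in Col-0 (SD, n = 3 each), LHCA1 4271 ± 114 CPM in pp4r3a-2 and 2154 ± 26.7 CPM in Col-0 (SD, n = 3 each) and CHLH (AT5G13630), a subunit of the magnesium chelatase of chlorophyll synthesis, 1783 ± 54.4 CPM in pp4r3a-2 and 480 ± 13.3 CPM in Col-0 (SD, n = 3 each). THI1 (AT5G54770), a thiamine synthesis gene, averaged 2457 ± 23.6 CPM in pp4r3a-2 and 3828 ± 158 CPM in Col-0 (SD, n = 3 each) and the myrosinase gene TGG1 (AT5G26000) 867 ± 15.1 CPM in pp4r3a-2 and 2210 ± 31.5 CPM in Col-0 (SD, n = 3 each). Each of these differences passed the test, with adjusted p of at most 4.86e-18.

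The circadian clock of Arabidopsis is a loop of transcription factors that repress each other in turn through the day. CCA1 and LHY act around dawn, pseudo-response regulators (PRR) through the day, and TOC1 with the evening complex of LUX, ELF3 and ELF4 at dusk. Many evening genes carry in their promoters the evening element, the motif AAAATATCT, which CCA1 and LHY bind. The motif was looked for on both strands in the 250 bases before the annotated start of each gene. It was found in 5 of the 17 day and evening clock genes (29.4%) and in 2.42% of all promoters of that length. Those 5 promoters are shown because the 5 genes moved in different directions. They are from the RefSeq genome TAIR10.1, read 5′ to 3′ toward the gene, with the evening element or its reverse complement in capitals.

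PRR5 (AT5G24470, chr5:8358547-8358796, minus strand): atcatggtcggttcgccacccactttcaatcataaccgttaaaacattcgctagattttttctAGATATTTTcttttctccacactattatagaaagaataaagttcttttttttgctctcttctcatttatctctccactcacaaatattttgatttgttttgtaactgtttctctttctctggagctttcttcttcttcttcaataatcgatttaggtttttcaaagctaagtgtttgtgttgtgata
TOC1 (AT5G61380, chr5:24674713-24674962, plus strand): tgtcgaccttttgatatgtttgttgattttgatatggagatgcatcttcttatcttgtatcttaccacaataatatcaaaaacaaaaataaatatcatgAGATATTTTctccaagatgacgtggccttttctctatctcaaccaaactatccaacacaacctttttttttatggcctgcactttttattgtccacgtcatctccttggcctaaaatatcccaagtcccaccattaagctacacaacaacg
LUX (AT3G46640, chr3:17182792-17183041, plus strand): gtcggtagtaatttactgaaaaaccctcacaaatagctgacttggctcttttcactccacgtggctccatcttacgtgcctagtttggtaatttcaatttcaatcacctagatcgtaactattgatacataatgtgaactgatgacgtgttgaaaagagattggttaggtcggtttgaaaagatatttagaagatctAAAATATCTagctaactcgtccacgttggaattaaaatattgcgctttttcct
BOA (AT5G59570, chr5:24003638-24003887, plus strand): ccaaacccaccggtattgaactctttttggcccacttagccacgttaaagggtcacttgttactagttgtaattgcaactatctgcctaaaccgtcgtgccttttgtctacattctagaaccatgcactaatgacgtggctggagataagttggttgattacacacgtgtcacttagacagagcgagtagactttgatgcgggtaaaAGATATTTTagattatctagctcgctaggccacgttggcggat
FKF1 (AT1G68050, chr1:25508389-25508638, plus strand): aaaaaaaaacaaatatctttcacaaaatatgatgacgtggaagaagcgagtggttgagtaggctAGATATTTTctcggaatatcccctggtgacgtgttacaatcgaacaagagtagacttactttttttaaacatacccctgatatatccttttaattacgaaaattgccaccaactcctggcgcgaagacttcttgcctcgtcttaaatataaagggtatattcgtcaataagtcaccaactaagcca

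The morning genes rose as a group. Of 14 tested, 12 were higher, 11 of them by at least 2-fold, and 1 was lower, with a median log2 change of 3.33 against a median near 0 for all genes tested. CCA1 (AT2G46830) had 26.6, 24.1 and 27.9 CPM in pp4r3a-2, against 0.627, 0.734 and 0.672 CPM in Col-0. LHY (AT1G01060) had 15.1, 14.6 and 15 CPM in pp4r3a-2, against 0.94, 1.01 and 0.924 CPM in Col-0. These are the dawn pair of repressors. The coactivator gene LNK2 (AT3G54500) had 99.9, 97 and 101 CPM in pp4r3a-2, against 8.03, 8.43 and 8.02 CPM in Col-0. The day-phase repressor gene PRR9 (AT2G46790) had 4.88, 4.82 and 5.01 CPM in pp4r3a-2, against 0.392, 0.425 and 0.672 CPM in Col-0. Values of the genotypes did not overlap in any of these genes, and the log2 changes were 5.26, 3.95, 3.60 and 3.30 (adjusted p at most 6.89e-18). LNK3, LNK4, LNK1 and RVE8 (AT3G09600), an activator of evening genes, rose by 3.35 to 4.51. The exception was RVE2 (AT5G37260), a CCA1-related gene, which had 12.3, 12.5 and 12.9 CPM in pp4r3a-2, against 44.6, 45.7 and 50.4 CPM in Col-0 (log2 change -1.90 ± 0.06 (SE), adjusted p = 8.94e-26).

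The day and evening genes divided, with 8 higher and 9 lower of 17. Of the genes whose promoters are printed above, only PRR5 rose: PRR5 (AT5G24470) had 43.5, 43.4 and 44.1 CPM in pp4r3a-2, against 12.5, 12.9 and 12.9 CPM in Col-0 (log2 change 1.77 ± 0.056 (SE), adjusted p = 6.62e-26). The other 4 fell. TOC1 (AT5G61380), a repressor of the morning genes, had 86.9, 83.4 and 83.4 CPM in pp4r3a-2, against 164, 163 and 164 CPM in Col-0 (log2 change -0.96 ± 0.038 (SE), adjusted p = 8.05e-23). LUX and BOA are MYB-type proteins of the evening. The evening complex gene LUX (AT3G46640) had 42.8, 43.5 and 38.8 CPM in pp4r3a-2, against 96.6, 96.6 and 96.9 CPM in Col-0. Its relative BOA (AT5G59570) had 4.79, 4.58 and 3.97 CPM in pp4r3a-2, against 32.7, 29.2 and 30 CPM in Col-0. FKF1 (AT1G68050), a blue light receptor, had 14.2, 14.7 and 16.8 CPM in pp4r3a-2, against 27.8, 24.2 and 24.7 CPM in Col-0 (log2 change -0.75 ± 0.069 (SE), adjusted p = 7.52e-12). Every pp4r3a-2 library lay below every Col-0 library in TOC1, LUX, BOA and FKF1, with adjusted p of at most 7.52e-12. Of the genes without the motif in this window, GI (AT1G22770) and CDF1 and CDF3, which encode repressors of flowering genes, rose by 1.56, 1.76 and 1.92, and PRR3 and ELF3 fell by 2.74 and 1.26. The hour of harvest is not given for any library, so a difference in hour cannot be told apart from the genotype in these clock values. The same limit holds for any other gene here whose level changes through the day, in the flowering, light-harvesting, starch or any other list.

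**Figure D3:**
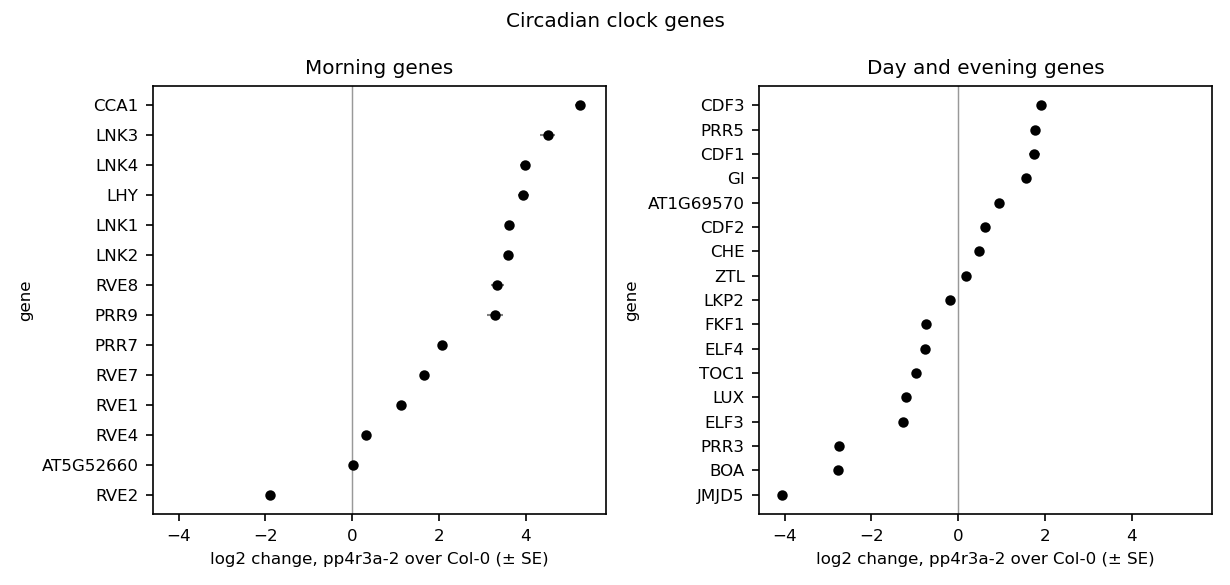
Log2 change in pp4r3a-2 over Col-0 (x axis) for the 14 morning and the 17 day and evening clock genes tested, with bars of 1 standard error that are mostly hidden by the points. Morning genes lie right of 0 except RVE2 and a gene near 0, while day and evening genes spread from JMJD5 at -4.06 to CDF3 at 1.92.

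Photoperiodic flowering genes downstream of the clock were low. CO (AT5G15840), the activator of the florigen gene in long days, had 2.72, 2.65 and 3.77 CPM in pp4r3a-2, against 9.36, 9.51 and 9.37 CPM in Col-0. The florigen gene FT (AT1G65480) had 0.382, 0.434 and 0.199 CPM in pp4r3a-2, against 1.33, 1.62 and 1.72 CPM in Col-0. The groups did not overlap in either gene (log2 changes -1.65 ± 0.12 (SE), adjusted p = 2.42e-15 and -2.15 ± 0.3 (SE), adjusted p = 6.48e-08). The repressor gene FLC (AT5G10140) rose by 0.99 and its relatives FLM (AT1G77080) and MAF2 (AT5G65050) fell by 0.74 and 0.74. Over the list of 12 tested flowering genes 4 were higher and 7 lower.

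Light-harvesting proteins bind chlorophyll in the antennae of photosystems I and II, and most of their genes rose. All 3 LHCB2 genes rose: LHCB2.1 (AT2G05100) had 1872, 1883 and 1888 CPM in pp4r3a-2, against 92.5, 93 and 90.6 CPM in Col-0, LHCB2.2 (AT2G05070) had 2004, 2044 and 2000 CPM in pp4r3a-2, against 128, 127 and 128 CPM in Col-0, and LHCB2.3 had a log2 change of 3.28. LHCB1.1, LHCB3, LHCA4 and LHCB6 rose by 1.07 to 1.55 on the log2 scale, while LHCB4.3 fell by 0.66. Of the 21 genes tested, 15 were higher, 7 by at least 2-fold, and 6 lower, 0 by 2-fold. Members of the LHCB1, LHCB2 and RBCS families are near-identical copies that may share reads, so the division among copies is uncertain.

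Rubisco, the carbon-fixing enzyme, has small subunits encoded by the RBCS genes, and chlorophyll synthesis runs through the magnesium chelatase and protochlorophyllide reductases. RBCS2B (AT5G38420) had 1141, 1213 and 1133 CPM in pp4r3a-2, against 3424, 3636 and 3605 CPM in Col-0, and RBCS1B and RBCS3B fell by 1.10 and 0.63. RBCS1A averaged 11487 ± 595 CPM in pp4r3a-2 and 11942 ± 388 CPM in Col-0 (SD, n = 3 each) and did not pass the test (log2 change -0.06, adjusted p 0.173), but was called lower under library size and upper quartile scaling (adjusted p 0.00486 and 0.0117). Over this list of 11 genes 7 were higher and 3 lower. HEMA1 (AT1G58290), which makes the tetrapyrrole precursor, had 254, 247 and 246 CPM in pp4r3a-2, against 112, 109 and 109 CPM in Col-0. CHLH had 1756, 1748 and 1846 CPM in pp4r3a-2, against 493, 482 and 466 CPM in Col-0. Both lay above Col-0 in every pp4r3a-2 library, with log2 changes of 1.18 and 1.89. PORA, a protochlorophyllide reductase gene, rose by 2.66, and RCA (AT2G39730), the Rubisco activase gene, by 0.89.

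Starch is built in the plastid from ADP-glucose and broken down at night after phosphorylation by glucan water dikinases. The synthesis list had 8 higher and 6 lower of 16, beside 35.6% and 35.8% of all genes. Besides GBSS1, the plastid glucose phosphate transporter gene GPT2 (AT1G61800) had 24.6, 26.8 and 27.3 CPM in pp4r3a-2, against 0.666, 0.232 and 0.252 CPM in Col-0. The ADP-glucose pyrophosphorylase gene APL3 (AT4G39210) had 44.7, 45.9 and 47.3 CPM in pp4r3a-2, against 9.72, 10.5 and 10.3 CPM in Col-0. The branching enzyme gene SBE2.1 (AT2G36390) had 75.6, 69.6 and 74.2 CPM in pp4r3a-2, against 191, 189 and 187 CPM in Col-0 and the phosphoglucomutase gene PGM (AT5G51820) fell by 1.13. Of 11 starch breakdown genes 5 rose and 6 fell: the dikinase genes PWD (AT5G26570) and SEX1 (AT1G10760) fell by 1.36 and 0.87, the disproportionating enzyme gene DPE1 (AT5G64860) by 1.51 and the amylase gene AMY3 (AT1G69830) by 1.06, while the beta-amylase genes BAM1 (AT3G23920) and BAM5 rose by 1.11 and 2.78. In Col-0 GPT2 had only 17, 6 and 6 counts and BAM5 7, 5 and 5. Both genes could pass the filter on low counts only through the mutant libraries, so the sizes of their changes are uncertain.

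Genes induced by darkness or sugar starvation also divided, with 6 higher and 9 lower of 15. SEN1 (AT4G35770) had 47.1, 48.1 and 45.4 CPM in pp4r3a-2, against 217, 226 and 232 CPM in Col-0, and the kinase subunit gene AKINBETA1 (AT5G21170) and the branched-chain keto acid dehydrogenase gene DIN4 (AT3G13450) fell by 1.23 and 1.24. The beta-glucosidase gene DIN2 (AT3G60140) rose by 3.10. Several of these genes were higher than in pp4r3a-1; SEN1 had 7.75, 8.23 and 7.72 CPM in pp4r3a-1. The log2 differences from pp4r3a-1 were 2.57 for SEN1, 2.36 for ASN1 (AT3G47340), an asparagine synthetase gene, 2.22 for TPS8 and 1.76 for DIN10 (adjusted p at most 1.26e-29).

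Phenylpropanoid and flavonoid enzymes turn phenylalanine into flavonols and anthocyanins. All 17 genes tested rose, 13 by at least 2-fold, with a median log2 change of 1.75. Rises were small at the first steps and in the flavonol branch and largest at the anthocyanin end. At the start PAL1 (AT2G37040), phenylalanine ammonia lyase, had 170, 171 and 171 CPM in pp4r3a-2, against 127, 115 and 108 CPM in Col-0. At the chalcone synthase step TT4 (AT5G13930) had 285, 309 and 322 CPM in pp4r3a-2, against 90.7, 93.1 and 88.8 CPM in Col-0. Chalcone synthase opens the flavonoid branch. At the anthocyanin end LDOX (AT4G22880) had 126, 128 and 122 CPM in pp4r3a-2, against 3.29, 2.86 and 3.57 CPM in Col-0, and the glutathione transferase gene TT19 (AT5G17220), needed to carry anthocyanins to the vacuole, had 85.3, 80.3 and 75.4 CPM in pp4r3a-2, against 2.08, 2.24 and 2.31 CPM in Col-0. The genotypes did not overlap in any of these genes, and the log2 changes were 0.55, 1.75, 5.27 and 5.18. The flavonol branch gene FLS1 (AT5G08640) rose by 0.36. Against pp4r3a-1, 16 of 17 were lower, where 23.7% of all genes tested were lower and 24.2% higher, TT4 by 0.98 and LDOX by 0.91 on the log2 scale.

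The regulators of the pathway moved in both directions. The anthocyanin activators PAP1 (AT1G56650) and TT8 (AT4G09820) had log2 changes of 6.41 and 3.23, TT8 with 8.15, 7.94 and 7.99 CPM in pp4r3a-2, against 0.823, 1.08 and 0.63 CPM in Col-0. PAP1 had 10.9, 11.5 and 9.23 CPM in pp4r3a-2, against 3 counts in each Col-0 library. That is the floor used here, so the size of the PAP1 change is uncertain. The flavonol activators MYB12 (AT2G47460) and MYB111 (AT5G49330) fell by 1.09 and 0.65. The repressor gene MYBL2 (AT1G71030) rose by 1.17, and the nitrogen-responsive repressors LBD37 (AT5G67420) and LBD39 (AT4G37540) fell by 0.69 and 0.75. In the 14 genes tested 6 were higher and 4 lower (adjusted p of the genes named at most 8.55e-05), beside 35.6% and 35.8% of all genes.

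Heat shock proteins are chaperones that hold or refold damaged proteins, and heat shock factors switch on their genes through heat shock elements, which hold the core motif GAANNTTC. Matches to this motif, on both strands, in the 250 bases before the start were present in 3 of the 15 small heat shock protein genes tested (20%) and in 9.42% of all promoters. The share was 5.26% for large chaperone genes (1 of 19) and 16.7% for the abscisic acid, cold and drought list (5 of 30). The 3 promoters of small heat shock protein genes are shown because these genes were among those that rose. Capitals mark the motif.

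HSP17.4 (AT3G46230, chr3:16984868-16985117, minus strand): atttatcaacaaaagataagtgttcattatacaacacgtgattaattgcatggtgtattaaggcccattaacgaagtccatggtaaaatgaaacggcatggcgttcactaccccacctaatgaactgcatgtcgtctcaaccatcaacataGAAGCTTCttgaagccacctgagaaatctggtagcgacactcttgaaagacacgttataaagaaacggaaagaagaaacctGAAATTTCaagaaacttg
AT1G53540 (AT1G53540, chr1:19980049-19980298, plus strand): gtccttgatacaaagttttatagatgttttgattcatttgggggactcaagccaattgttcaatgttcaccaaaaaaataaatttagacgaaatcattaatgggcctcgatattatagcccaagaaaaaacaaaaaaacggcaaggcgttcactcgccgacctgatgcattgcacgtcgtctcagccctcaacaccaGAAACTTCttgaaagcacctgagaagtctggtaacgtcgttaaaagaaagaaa
AT1G52560 (AT1G52560, chr1:19575867-19576116, minus strand): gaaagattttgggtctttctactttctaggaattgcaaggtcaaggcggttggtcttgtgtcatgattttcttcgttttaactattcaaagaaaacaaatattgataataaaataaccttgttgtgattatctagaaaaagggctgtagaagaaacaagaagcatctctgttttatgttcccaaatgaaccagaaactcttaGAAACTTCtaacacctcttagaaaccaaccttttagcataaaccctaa

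Small heat shock protein genes rose in pp4r3a-2, 13 of 15 by at least 2-fold, with a median log2 change of 2.09, and 2 fell. Members near 0 in the other genotypes could pass the filter on low counts only through the pp4r3a-2 libraries. AT1G53540, for example, had 6, 7 and 7 counts in Col-0 and 8, 12 and 8 in pp4r3a-1. This count and this median are therefore a description only. HSP17.4 (AT3G46230), with 2 matches, had 15.7, 16.7 and 16.6 CPM in pp4r3a-2, against 1.71, 0.752 and 1.49 CPM in pp4r3a-1 and 0.548, 0.657 and 0.588 CPM in Col-0. AT1G53540, annotated as an HSP20-like chaperone, had 7.81, 8.06 and 6.75 CPM in pp4r3a-2, against 0.297, 0.475 and 0.351 CPM in pp4r3a-1 and 0.235, 0.271 and 0.294 CPM in Col-0. AT1G07400, of the same family and without a match in the window, had 11.2, 11.3 and 10.8 CPM in pp4r3a-2, against 2, 1.7 and 1.54 CPM in pp4r3a-1 and 1.21, 1.74 and 1.43 CPM in Col-0. In these 3 genes every pp4r3a-2 library was above every library of the other genotypes. The log2 changes over Col-0 were 4.76 for HSP17.4 and 2.92 for AT1G07400, and over pp4r3a-1 3.62 and 2.66 (adjusted p at most 2.27e-20). Those of AT1G53540, 4.81 over Col-0 and 4.33 over pp4r3a-1, are a description only. An exception was AT5G51440, which had 38.6, 39.9 and 38.7 CPM in pp4r3a-2, against 33.8, 32 and 32.5 CPM in pp4r3a-1 and 8.3, 8.23 and 8.48 CPM in Col-0 and thus a small difference between the alleles (log2 0.25 ± 0.048 (SE), adjusted p = 3.31e-05). The genes that fell were AT5G37670 and AT5G47600, with -0.46 and -1.08, and the first lost its call without replicate 3 or replicate 2 of pp4r3a-2 or of Col-0 (adjusted p 0.0699 without pp4r3a-2 replicate 3, 0.262 without pp4r3a-2 replicate 2, 0.112 without Col-0 replicate 2 and 0.0805 without Col-0 replicate 3), and also in DESeq2 (adjusted p 0.121).

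Large chaperones rose less, 17 of 19 higher and 1 lower, 6 by at least 2-fold, with a median of 0.78. Over pp4r3a-1 the median of this list was 0.32, with 12 members higher and 4 lower. HSP90.1 (AT5G52640), the heat-inducible cytosolic HSP90, had 46.2, 51.1 and 45.9 CPM in pp4r3a-2, against 8.53, 10.3 and 8.6 CPM in pp4r3a-1 and 12.4, 10.8 and 12.1 CPM in Col-0. HSP70B (AT1G16030) had 29.1, 30.9 and 31.2 CPM in pp4r3a-2, against 4.53, 4.59 and 5.22 CPM in pp4r3a-1 and 7.72, 7.34 and 7.43 CPM in Col-0. In both genes the pp4r3a-1 libraries lay below the Col-0 libraries. The log2 difference of pp4r3a-2 over pp4r3a-1 was 2.39 ± 0.068 (SE), adjusted p = 1.61e-26 for HSP90.1. It was 2.67 ± 0.075 (SE), adjusted p = 1.13e-26 for HSP70B. The disaggregase gene HSP101 (AT1G74310) rose by 0.88 and its plastid relative CLPB3 (AT5G15450) by 1.76. The constitutive chaperone genes HSC70-1 (AT5G02500) and HSP90.2 rose by 0.20 and 0.52, and HSP90.5 (AT2G04030), the plastid HSP90, fell by 0.29.

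Of 14 heat shock factor and related regulator genes 10 rose and 3 fell, and without pp4r3a-2 replicate 3 the counts were 8 and 2. HSFA2 (AT2G26150), which extends heat responses, had 3.35, 3.04 and 3.28 CPM in pp4r3a-2, against 1.04, 1.74 and 1.4 CPM in pp4r3a-1 and 1.8, 1.66 and 1.3 CPM in Col-0. HSFA4A (AT4G18880) rose by 1.40, HSFB2A by 0.81 and DREB2A (AT5G05410), a drought and heat regulator, by 1.08. HSFA7A (AT3G51910) and HSFC1 fell by 0.91 and 0.89. The gene of the endoplasmic reticulum chaperone BIP3 (AT1G09080) rose by 1.86 and that of the stress transcription factor BZIP60 (AT1G42990) by 1.17, in a list with 7 of 11 higher and 1 lower.

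**Figure D4:**
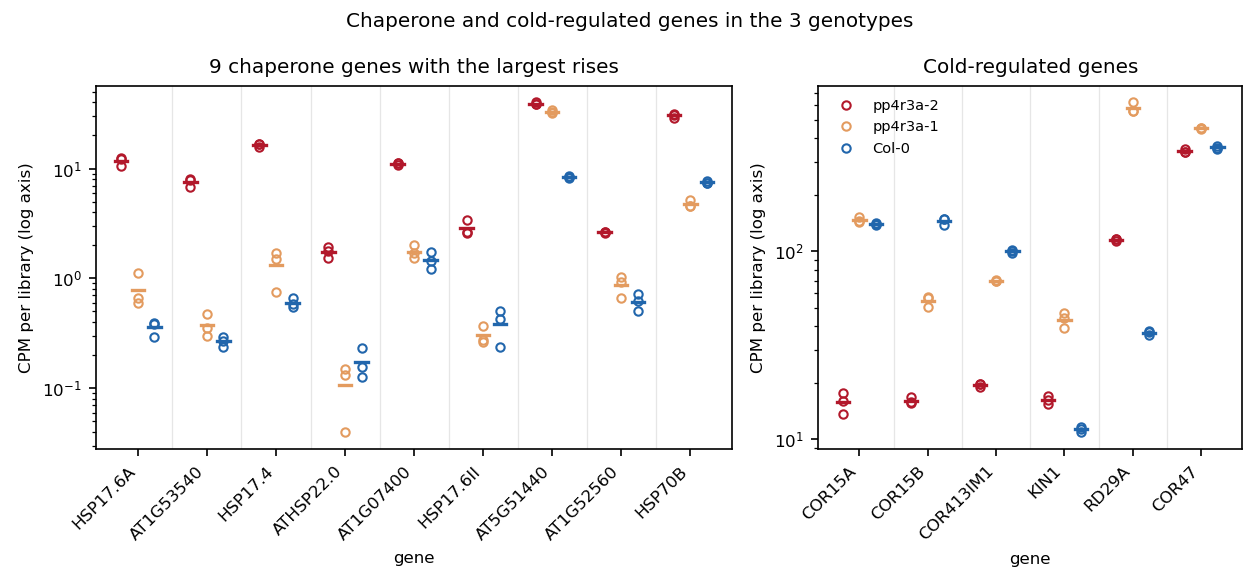
Exon counts in CPM (log axis) of 9 chaperone genes and of 6 cold-regulated genes, a circle for each library and a line at the mean, pp4r3a-2 in red, pp4r3a-1 in orange and Col-0 in blue. In most of the chaperone genes pp4r3a-2 stands above both other genotypes, and in COR15A, COR15B and COR413IM1 it stands below them.

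Abscisic acid, made under drought, acts through receptors, PP2C phosphatases and bZIP factors, and cold acts through CBF factors, which bind the C-repeat core CCGAC in promoters. Of 30 genes tested 24 were higher, 15 by at least 2-fold, and 3 lower, with a median log2 change of 1.02. CYP707A3 (AT5G45340), whose enzyme degrades abscisic acid, had 27.1, 27 and 26.4 CPM in pp4r3a-2, against 2.23, 1.7 and 2.23 CPM in Col-0. The drought marker RD29A (AT5G52310) had 114, 116 and 117 CPM in pp4r3a-2, against 561, 561 and 620 CPM in pp4r3a-1 and 37.8, 37.2 and 36 CPM in Col-0. The dehydrin gene RAB18 (AT5G66400) had 26.3, 25.1 and 26.6 CPM in pp4r3a-2, against 6.03, 5.72 and 5.5 CPM in Col-0. RD29A was far higher still in pp4r3a-1 (log2 difference -2.33 ± 0.04 (SE), adjusted p = 7.16e-33). CBF2 (AT4G25470) averaged 2.06 ± 0.327 CPM in pp4r3a-2 and 0.186 ± 0.0983 CPM in Col-0 (SD, n = 3 each) (log2 change 3.45 ± 0.31 (SE), adjusted p = 2.35e-12), and the synthesis gene NCED3 (AT3G14440) rose by 0.87. The median of the list over pp4r3a-1 was -1.05, with 26 members lower than in pp4r3a-1 and 1 higher.

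The COR15 genes went the other way. Their promoters are shown because COR15A holds the C-repeat core and COR15B does not in the 250 bases before the start, and both fell. The COR15B window lies almost wholly within the annotated COR15A gene (chr2:17710441-17712330), so the windows are not alike. Capitals mark CCGAC or its reverse complement. The core was present in 8 of the 30 genes of the list (26.7%) and in 12.7% of all promoters. Other lists had similar shares, with 4 of 15 small heat shock protein genes (26.7%) and 4 of 17 day and evening clock genes (23.5%).

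COR15A (AT2G42540, chr2:17712331-17712580, minus strand): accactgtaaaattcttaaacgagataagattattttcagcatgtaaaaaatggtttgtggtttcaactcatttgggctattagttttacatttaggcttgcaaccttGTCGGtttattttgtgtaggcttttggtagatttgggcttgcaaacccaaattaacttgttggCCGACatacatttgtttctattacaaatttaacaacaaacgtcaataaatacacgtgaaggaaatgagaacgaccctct
COR15B (AT2G42530, chr2:17710434-17710683, minus strand): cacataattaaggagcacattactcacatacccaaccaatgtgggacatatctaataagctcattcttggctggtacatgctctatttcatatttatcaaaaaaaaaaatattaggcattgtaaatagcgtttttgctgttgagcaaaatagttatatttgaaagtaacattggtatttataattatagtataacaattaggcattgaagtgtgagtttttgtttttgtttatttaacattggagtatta

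COR15A had 153, 146 and 143 CPM in pp4r3a-1 beside the levels given above, close to Col-0, and the alleles differed by -3.21 ± 0.053 (SE), adjusted p = 7.16e-33. The neighbouring gene COR15B (AT2G42530) had 16.8, 15.8 and 15.6 CPM in pp4r3a-2, against 56.2, 50.5 and 57.5 CPM in pp4r3a-1 and 148, 149 and 138 CPM in Col-0. COR413IM1 (AT1G29395), a cold-regulated gene of the plastid inner membrane, had 19.8, 19.6 and 18.9 CPM in pp4r3a-2, against 70, 70.2 and 69.2 CPM in pp4r3a-1 and 98.6, 101 and 102 CPM in Col-0. Each of these 3 genes was lowest in all pp4r3a-2 libraries. KIN2 fell by 0.56 and its near-identical neighbour KIN1 rose by 0.53, a division that shared reads make uncertain.

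Salicylic acid and defence genes rose more often than they fell, 17 higher and 3 lower of 26, with 9 and 3 past 2-fold. WRKY40 (AT1G80840), a transcription factor gene induced by microbes, had 34.7, 34.7 and 35.7 CPM in pp4r3a-2, against 2.55, 2.71 and 3.44 CPM in Col-0. WRKY33 (AT2G38470), an activator of camalexin synthesis, had 141, 142 and 152 CPM in pp4r3a-2, against 25.9, 27 and 26.1 CPM in Col-0. The receptor kinase gene FRK1 (AT2G19190) had 5.22, 5.69 and 5.56 CPM in pp4r3a-2, against 0.47, 0.503 and 0.714 CPM in Col-0. Salicylic acid synthesis was represented by ICS1 (AT1G74710), with a log2 change of 1.36, and its regulator CBP60G, with 1.57. ACD6 (AT4G14400), for an ankyrin-repeat membrane protein of defence, had 26.8, 27.5 and 25.5 CPM in pp4r3a-2, against 128, 126 and 129 CPM in Col-0, and PCC1 fell by 2.07. Of 66 WRKY genes in all, 35 rose and 15 fell, 11 and 4 by 2-fold.

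Camalexin is the main antimicrobial compound of Arabidopsis. Of 9 genes for it and for indole glucosinolates 7 rose and 1 fell. CYP71A12 (AT2G30750) had 205, 218 and 216 CPM in pp4r3a-2, against 20.8, 18.1 and 22.2 CPM in Col-0. PAD3 (AT3G26830), for the last step, had 50.9, 51.1 and 49.6 CPM in pp4r3a-2, against 5.6, 6.77 and 6.47 CPM in Col-0 (log2 changes 3.39 ± 0.051 (SE), adjusted p = 2.48e-34 and 3.01 ± 0.062 (SE), adjusted p = 1.19e-31). Aliphatic glucosinolates, sulfur-rich defence compounds made from methionine, had 16 of 17 genes higher and 1 lower, with 8 past 2-fold. CYP79F1 (AT1G16410) had 182, 198 and 203 CPM in pp4r3a-2, against 29.4, 31.3 and 29.5 CPM in Col-0, and BAT5, MAM1 and CYP83A1 rose by 1.76, 1.59 and 1.21. The activator MYB28 (AT5G61420) fell by 0.22, MYB29 rose by 0.71, and the myrosinases TGG1 and TGG2 fell as given above. CYP71A12 and CYP71A13 are close copies, as are CYP79F1 and CYP79F2, so their counts may be shared.

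Jasmonate is made from fatty acids by lipoxygenases and allene oxide enzymes, and JAZ proteins repress its targets. Of 23 genes tested 17 rose, 9 by at least 2-fold, and 2 fell. LOX4 (AT1G72520) had 46.5, 45.5 and 47.3 CPM in pp4r3a-2, against 2.47, 2.67 and 2.73 CPM in Col-0. AOS (AT5G42650) had 200, 196 and 190 CPM in pp4r3a-2, against 97.5, 94.5 and 100 CPM in Col-0. JAZ1, JAZ5, JAZ7 and JAZ9 rose by 1.15 to 2.06. Ethylene synthesis genes rose too: ACS6 (AT4G11280) had 73.6, 68.4 and 66.8 CPM in pp4r3a-2, against 7.8, 7.62 and 6.97 CPM in Col-0, and ACS2 and ACS8 rose by 1.48 and 3.00, in a list with 7 of 11 higher and 2 lower. Glutathione transferases of the tau and phi classes, which detoxify reactive compounds, had 29 of 41 higher and 9 lower, and GSTF6 (AT1G02930) had 478, 498 and 480 CPM in pp4r3a-2, against 58.5, 65.9 and 69.3 CPM in Col-0.

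Genes of the DNA damage response rose, 19 of 24 higher, 11 by at least 2-fold, and 1 lower. In plants the factor SOG1 activates this response after the kinases ATM and ATR. NAC044 (AT3G01600), a target of SOG1, had 34.2, 32.9 and 32.4 CPM in pp4r3a-2, against 2.39, 1.78 and 2.27 CPM in Col-0. The ribonucleotide reductase gene TSO2 (AT3G27060) had 217, 235 and 226 CPM in pp4r3a-2, against 65.4, 63.6 and 63.4 CPM in Col-0. The poly(ADP-ribose) polymerase gene PARP2 (AT4G02390) had 35.6, 34 and 34.3 CPM in pp4r3a-2, against 8.03, 9.01 and 7.64 CPM in Col-0. In each the genotypes did not overlap (adjusted p at most 1.23e-25). GMI1 and the cell cycle inhibitor genes SMR5 and SMR7 rose by 3.08, 2.38 and 1.77. The kinase gene ATM (AT3G48190) fell by 0.25, and SOG1 averaged 15 ± 0.519 CPM in pp4r3a-2 and 15 ± 1.22 CPM in Col-0 (SD, n = 3 each) and did not pass (adjusted p 0.994).

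Replication genes mostly rose. All 6 MCM helicase genes, which unwind DNA at origins, had log2 changes of 0.90 to 1.13, and PCNA1 (AT1G07370), the sliding clamp, rose by 0.76. MCM5 (AT2G07690) had 54.3, 56.2 and 54.6 CPM in pp4r3a-2, against 25.5, 25.4 and 24.4 CPM in Col-0. Over the list 12 of 14 rose and 0 fell, 3 of them by at least 2-fold. Histone genes rose with them, 38 of 44 higher, 20 by at least 2-fold, and 3 lower, with a median of 0.85; AT3G53650, annotated as a histone, had 52, 49.1 and 46.3 CPM in pp4r3a-2, against 7.91, 7.07 and 7.6 CPM in Col-0. Many histone genes are near-identical copies, so their single values are uncertain. Of 15 mitotic genes 6 were higher and 7 lower, 1 and 0 by at least 2-fold, beside 35.6% and 35.8% of all genes, and without pp4r3a-2 replicate 3 the counts were 4 and 5: CYCB1;1 (AT4G37490) rose by 1.23, and KRP2 and SIM, inhibitors of cyclin-dependent kinases, fell by 0.93 and 0.53.

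Nutrient genes are given by element. Of 15 phosphate starvation genes 13 rose, 7 by at least 2-fold, and 0 fell. The phosphatase gene PS2 (AT1G73010) had 14.6, 15.8 and 16.1 CPM in pp4r3a-2, against 1.29, 1.47 and 1.13 CPM in Col-0. The phosphate sensor gene SPX1 (AT5G20150) had 27.1, 28.7 and 26.9 CPM in pp4r3a-2, against 5.92, 7.19 and 7.35 CPM in Col-0. Nitrate genes fell, 9 of 13 lower, 6 by at least 2-fold, and 1 higher, with a median of -0.91. The nitrate reductase gene NIA1 (AT1G77760) had 295, 316 and 337 CPM in pp4r3a-2, against 826, 811 and 792 CPM in Col-0. The nitrite reductase gene NIR1 (AT2G15620) had 224, 225 and 221 CPM in pp4r3a-2, against 462, 463 and 435 CPM in Col-0. UPM1 (AT5G40850), which acts in the synthesis of sirohaem, a cofactor of nitrite reductase, had 94.1, 97.8 and 95.3 CPM in pp4r3a-2, against 355, 346 and 343 CPM in Col-0. The regulator NLP7 (AT4G24020) rose by 0.47.

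Iron genes divided by role. The shoot and root iron deficiency factors BHLH38, BHLH39, BHLH100 and BHLH101 rose by 1.76 to 2.33, BHLH38 (AT3G56970) with 77.8, 74.9 and 72.7 CPM in pp4r3a-2, against 14, 14.9 and 15.9 CPM in Col-0. The iron sensor gene BTS (AT3G18290) had 525, 505 and 531 CPM in pp4r3a-2, against 185, 189 and 180 CPM in Col-0. The phloem transporter gene OPT3 (AT4G16370) had 520, 525 and 540 CPM in pp4r3a-2, against 191, 191 and 181 CPM in Col-0. The ferritin genes FER1, FER3 and FER4, for iron storage, fell by 0.72, 1.26 and 1.31, and the uptake regulator FRU (AT2G28160) and the uptake genes FRO2 (AT1G01580) and IRT1 (AT4G19690) fell by 0.96, 0.56 and 0.22. In all 15 of 22 rose and 6 fell.

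Among oxidative and hypoxic stress genes 14 of 25 rose and 5 fell, 11 and 2 by at least 2-fold. The catalase gene CAT2 (AT4G35090) had 671, 702 and 710 CPM in pp4r3a-2, against 128, 127 and 123 CPM in Col-0. The alternative oxidase gene AOX1A (AT3G22370) had 151, 145 and 138 CPM in pp4r3a-2, against 28.9, 29.1 and 29.8 CPM in Col-0. The light stress genes ELIP1 (AT3G22840) and ELIP2 rose by 3.04 and 3.53 and the hypoxia gene PDC1 (AT4G33070) by 2.14. The copper superoxide dismutase genes CSD1 (AT1G08830) and CSD2 (AT2G28190) fell, CSD2 with 17.4, 18.8 and 18.9 CPM in pp4r3a-2, against 54.4, 55.6 and 54.4 CPM in Col-0, and their copper chaperone gene CCS (AT1G12520) fell by 0.70.

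Seed maturation genes, known from ripening seeds, averaged at most 5.09 CPM in Col-0. Of 15 tested 11 rose, 9 by at least 2-fold, and 1 fell, with a median of 2.51. Members near 0 in Col-0 could pass the filter on low counts only through the mutant libraries, so this count and this median are a description only, and with no filter the median was 0.80. Without pp4r3a-2 replicate 3 the counts were 12 higher and 0 lower. The cruciferin storage protein gene CRA1 (AT5G44120) had 51.6, 52.2 and 54.1 CPM in pp4r3a-2, against 6.11, 4.02 and 5.12 CPM in Col-0. The oleosin gene OLEO1 (AT4G25140) had 10.9, 10.4 and 11.1 CPM in pp4r3a-2, against 0.588, 0.464 and 0.546 CPM in Col-0. The albumin gene SESA1 (AT4G27140) had 5.98, 5.25 and 4.22 CPM in pp4r3a-2, against 0.509, 0.232 and 0.504 CPM in Col-0. Every pp4r3a-2 library lay above every Col-0 library in these genes. The seed aquaporin gene TIP3;1 (AT1G73190) rose by 4.17 and PER1 (AT1G48130), a peroxiredoxin gene of dry seeds, by 4.23. The other 6 genes of this list of 21 did not pass the filter on low counts. Of 8 senescence genes 5 rose and 1 fell, SAG13 (AT2G29350) with 12.9, 11.3 and 12.1 CPM in pp4r3a-2, against 0.431, 0.619 and 0.63 CPM in Col-0.

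Hormone and wall genes moved in both directions. Auxin genes rose in 14 of 23 cases and fell in 3, IAA2 by 1.16 and YUC8 and YUC9, for auxin synthesis, by 1.12 and 1.16. In the cytokinin list 1 of 12 rose and 6 fell, the response regulators ARR4 and ARR8 by 0.84 and 1.16. The brassinosteroid synthesis genes CPD (AT5G05690) and BR6OX2 (AT3G30180) fell by 1.30 and 1.27, and BR6OX1 rose by 1.04, in a list with 4 higher and 5 lower of 9. In the gibberellin list 7 of 18 rose and 5 fell, beside 35.6% and 35.8% of all genes. Without pp4r3a-2 replicate 3 the gibberellin counts were 5 and 4. The repressor genes RGL1, RGL3 and GAI fell by 0.93, 1.28 and 0.52. The touch-induced wall gene TCH4 (AT5G57560) had 170, 169 and 158 CPM in pp4r3a-2, against 24.3, 26.1 and 26.8 CPM in Col-0. The expansin gene EXPA16 (AT3G55500) had 4.2, 3.55 and 3.82 CPM in pp4r3a-2, against 23.2, 21.4 and 21.5 CPM in Col-0, although their families moved both ways, with 14 higher and 13 lower of 30 and 9 and 7 of 20.

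MicroRNAs are cut from primary transcripts by DCL1 with its partner proteins, methylated by HEN1 and loaded into AGO1. Of the messenger RNAs of 16 genes of this machinery 6 rose and 4 fell, beside 35.6% and 35.8% of all genes. Past 2-fold there were 0, beside 8.45% higher and 6.24% lower among all genes. DCL1 (AT1G01040) had 39.1, 41.2 and 44.9 CPM in pp4r3a-2, against 52.5, 51.5 and 52.6 CPM in Col-0 (log2 change -0.33 ± 0.048 (SE), adjusted p = 1.89e-07) and AGO1 (AT1G48410) had 178, 164 and 163 CPM in pp4r3a-2, against 224, 213 and 224 CPM in Col-0 (log2 change -0.39 ± 0.038 (SE), adjusted p = 2.52e-11). SE (AT2G27100) rose by 0.39, HEN1 by 0.28 and the exportin gene HST (AT3G05040) by 0.58. AGO1 messenger RNA is itself a microRNA target.

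Of 47 microRNA target genes 24 rose and 18 fell, 5 and 2 by at least 2-fold, with a median of 0.21. The shares past 2-fold were near the 8.45% and 6.24% of all genes. The miR156 family targets SPL10, SPL2 and SPL13, which promote adult growth, rose by 1.27 to 1.63, SPL2 (AT5G43270) with 61.3, 57.5 and 59.6 CPM in pp4r3a-2, against 21.4, 22 and 21 CPM in Col-0. Their relative SPL3 (AT2G33810) had 2.72, 2.73 and 2.88 CPM in pp4r3a-2, against 9.21, 8.85 and 9.58 CPM in Col-0. Values of the genotypes overlapped in neither SPL gene. TOE1 (AT2G28550), a miR172 target that delays flowering, had 154, 150 and 151 CPM in pp4r3a-2, against 55.7, 56 and 56.7 CPM in Col-0. APS1 (AT3G22890), an ATP sulfurylase gene targeted by miR395, had 593, 605 and 595 CPM in pp4r3a-2, against 234, 225 and 226 CPM in Col-0. Targets of miR319 in the TCP family fell, TCP2, TCP3, TCP4 and TCP24 by 0.22 to 0.63. The HD-ZIP III genes targeted by miR165 and miR166 included PHV, which rose by 0.65, and the miR398 targets CSD1, CSD2 and CCS fell as given above.

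Loci annotated as noncoding RNA of the class ncRNA were mostly lower. Of 116 tested, 69 were lower (59.5%) and 13 higher (11.2%), and 29 were at least 2-fold lower (25%), against 6.24% of all genes. Most of these loci averaged under 10 CPM. Among all genes the share at least 2-fold lower was 18% at a mean under 1 CPM and 8.78% at 1 to 10 CPM. Among the 79 ncRNA loci that overlap no other gene 46 were lower and 9 higher, and 22 were at least 2-fold lower. AT3G44798 had 1.99, 2.09 and 1.79 CPM in pp4r3a-2, against 9.13, 8.78 and 7.9 CPM in Col-0. AT1G11175 had 4.54, 3.91 and 4.12 CPM in pp4r3a-2, against 12.8, 13.7 and 12.6 CPM in Col-0. AT4G12917 had 2.5, 1.97 and 2.08 CPM in pp4r3a-2, against 7.64, 6.8 and 7.64 CPM in Col-0, with no overlap between the genotypes. These 3 noncoding loci were chosen after their values were seen. Other noncoding classes did not all lean this way. Of 892 loci of the class lncRNA, 33.5% were higher and 27.9% lower. Among the 38 lncRNA loci that overlap no other gene, 18.4% were higher and 50% lower.

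Markers of cell types moved to different degrees. The stomatal and trichome list had 8 of 11 genes lower, 4 by at least 2-fold, and 1 higher, with a median of -0.77; its summed level was 80.9, 87 and 84 CPM in pp4r3a-2, against 136, 136 and 141 CPM in Col-0. FAMA (AT3G24140), needed for the guard cell fate, had 10.1, 11.7 and 11 CPM in pp4r3a-2, against 32.5, 30.8 and 30.9 CPM in Col-0, and MUTE, EPF1 and MYB60 fell by 1.67, 1.43 and 1.30, while SPCH (AT5G53210), which starts the lineage, averaged 8.99 ± 0.445 CPM in pp4r3a-2 and 8.59 ± 0.507 CPM in Col-0 (SD, n = 3 each) and did not pass (adjusted p 0.489). Root markers had 8 of 14 lower and 3 higher; the root hair gene RHD6 (AT1G66470) fell by 1.29 and the quiescent centre gene WOX5 (AT3G11260) rose by 1.53, and the summed level was 2072, 2128 and 2103 CPM in pp4r3a-2, against 1935, 1884 and 1897 CPM in Col-0. Vascular markers had 1 of 8 higher and 3 lower with a median of 0.02. Meristem and floral markers were mostly under the filter, with 2 of 4 and 3 of 7 tested and 1 higher in each. The meristem gene KNAT1 (AT4G08150), at 0.20, lost its call without pp4r3a-2 replicate 2, pp4r3a-2 replicate 3 or Col-0 replicate 1 (adjusted p 0.0896, 0.114 and 0.127), and also under library size scaling, upper quartile scaling and DESeq2 (adjusted p 0.0887, 0.104 and 0.068). WUS, CLV3, AP1, AP3, AG and SEP1 did not pass it. The part of these differences in the results on other genes was not tested.

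**Figure D5:**
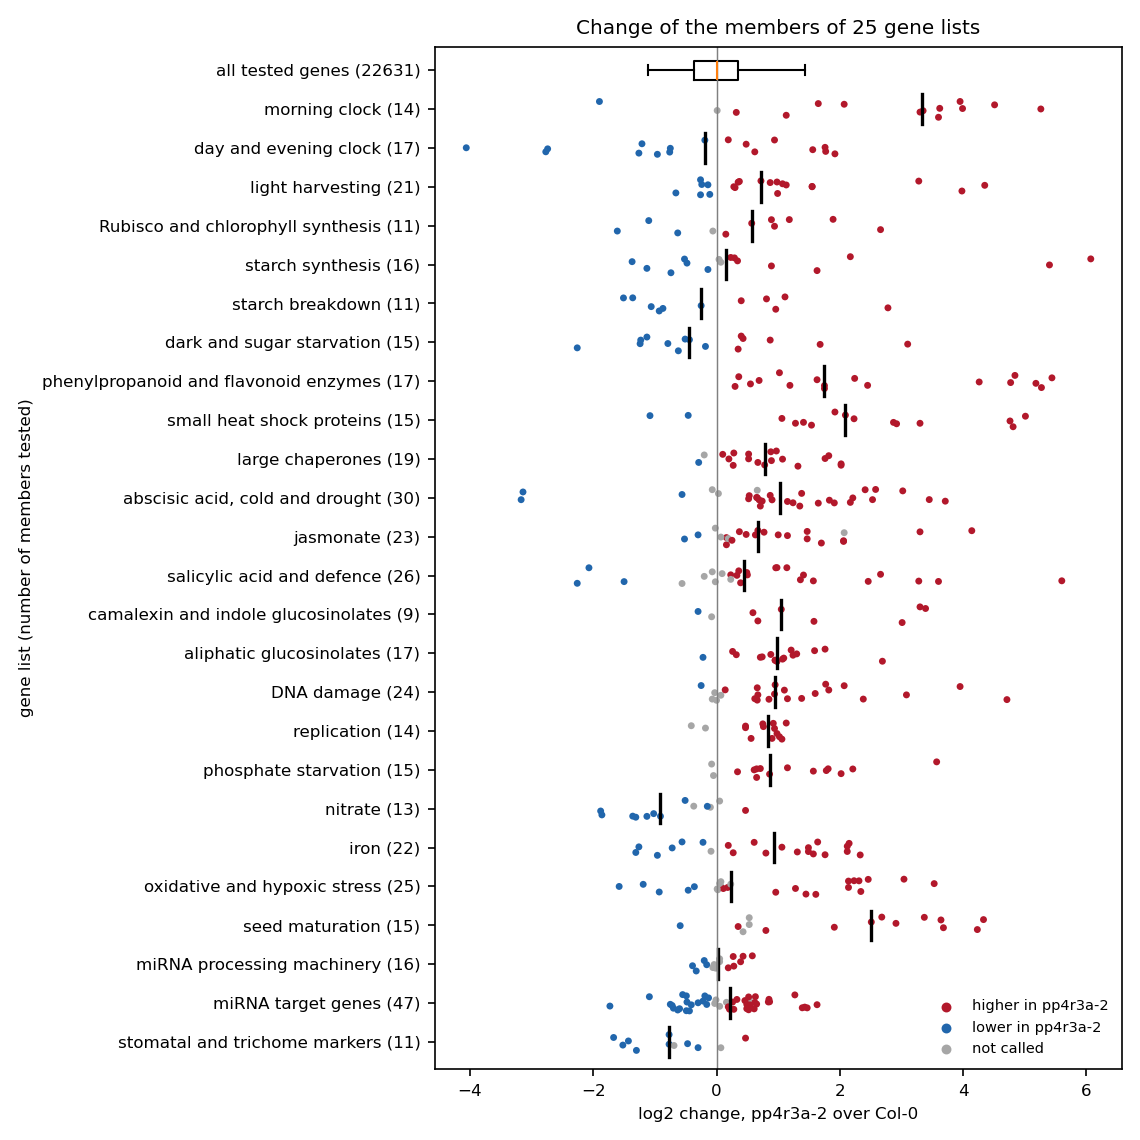
Log2 change in pp4r3a-2 over Col-0 (x axis) for each tested member of 25 gene lists, red where the gene was called higher, blue where called lower and grey where not called, with a black line at the list's median and, at the top, a box plot of all 22631 genes (box, middle 50% of genes; whiskers, 5th to 95th percentile). The medians of morning clock, seed maturation, small heat shock and flavonoid genes lie furthest right, and those of nitrate and stomatal and trichome genes furthest left.

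The alleles were compared directly on the same 3 pp4r3a-2 libraries. Against pp4r3a-1, 515 genes were at least 2-fold higher in pp4r3a-2 (2.28%) and 613 at least 2-fold lower (2.71%). At least 2-fold higher than both Col-0 and pp4r3a-1 were 206 genes (0.91%) and at least 2-fold lower than both 210 (0.928%); both contrasts use the same pp4r3a-2 libraries. Among the genes that met the conditions given for the largest rises in both contrasts, counts of at least 10 in every library of the lower genotypes included, those furthest above both were AT1G07400, HSP90.1, HSP70B, PR1, AT1G02660, annotated as an alpha/beta hydrolase, and AACT1 (AT5G61160), annotated as an acyltransferase. AT1G02660 had 51.2, 53.6 and 55.7 CPM in pp4r3a-2, against 16.8, 14.8 and 17.3 CPM in pp4r3a-1 and 14.8, 15 and 14.6 CPM in Col-0. AACT1 had 23.4, 25.5 and 24 CPM in pp4r3a-2, against 8.68, 7.67 and 7.81 CPM in pp4r3a-1 and 3.92, 3.4 and 4.87 CPM in Col-0. Those furthest below both were COR15A, COR413IM1, PP4R3A, MBP1 (AT1G52040), a myrosinase-binding protein gene, AT3G05727 and AT4G22490. MBP1 had 3.48, 3.71 and 3.52 CPM in pp4r3a-2, against 17, 15 and 16.2 CPM in pp4r3a-1 and 15.5, 14.9 and 15.1 CPM in Col-0. AT3G05727 had 18.1, 20.5 and 16.9 CPM in pp4r3a-2, against 79, 71 and 69.2 CPM in pp4r3a-1 and 112, 119 and 120 CPM in Col-0.

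A few genes had counts in pp4r3a-2 or in Col-0 and none in the other. PAP14 (AT2G46880), a purple acid phosphatase gene, had 0.509, 0.474 and 0.744 CPM in pp4r3a-2, against 0 counts in every Col-0 library, which is at least 4.8-fold higher, taking 3 counts per Col-0 library as the floor. The reverse held for 5 genes with 0 counts in pp4r3a-2 and at least 10 in each Col-0 library. Of these, RL1 (AT4G39250), a MYB-related gene, was at least 12.7-fold lower in pp4r3a-2, and the bound for AT4G15242 was 19.2; the other 3 were AT3G04330, AT3G28915 and AT4G15245, with lower bounds of 3.25 to 4.26. These genes were chosen after their values were seen.

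Genes encoded in the organelles followed replicate 3. Of 73 chloroplast-encoded genes tested 32 were called higher and 5 lower, with a median of 0.50 that was 0.25 without that library, and of 30 mitochondria-encoded genes 12 were higher and 1 lower, with medians of 0.56 and 0.39. Without replicate 3 the calls were 25 higher and 6 lower among the chloroplast-encoded genes and 7 higher and 0 lower among the mitochondria-encoded ones. The ribosomal RNA gene AT2G01010 had 302, 462 and 1461 CPM in pp4r3a-2, against 578, 327 and 328 CPM in Col-0, with the highest value in replicate 3, and was not called (adjusted p 0.267; log2 change 0.85, and -0.10 without that replicate). Among the lists of nuclear genes the median that moved most without this library was that of the stomatal and trichome markers, at -0.68 against -0.77 with it.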

How the data were processed

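Polyadenylated RNA of 12-day-old seedlings was sequenced in 3 pp4r3a-2, 3 pp4r3a-1 and 3 Col-0 libraries. The authors deposited raw exon and intron counts for 37869 loci per library, per the file headers; reads were aligned with STAR, per the submitters' processing notes. The counter, strand setting, genome build and annotation are not given in the sources used here. Symbols, products and promoter sequences came from the RefSeq annotation TAIR10.1, matched by locus identifier for 37573 loci, and its coordinates are printed for those promoters only.

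Exon counts of all 9 libraries were fitted in edgeR 4.0.16 (R 4.3.3) by robust glmQLFit after TMM scaling and filterByExpr, which left 22631 genes. The contrast was pp4r3a-2 minus Col-0, with Benjamini-Hochberg adjustment over all these genes and a threshold of 0.05; calls past 2-fold also needed a log2 change of at least 1. Standard errors came from the log2 change and its F statistic. Exon counts per library ranged from 20733294 to 27022497, and floors cover counting error only. The series' design text calls the replicates biological and does not say whether they were separate plates or sowings, so p-values measure the spread between these samples. In simulated data of 22155 genes for this comparison recovery was 79.1% for genes changed 1.5-fold, 90.5% at 2-fold and 97% at 4-fold, with 5.16% of calls false. Only 200 genes were changed in each of 3 draws, in both directions, whereas 71.4% of the genes tested were called in the data. These shares describe a setting with few changes and do not give the error rate of the calls above. Same-numbered libraries did not deviate together.

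The gene lists were chosen with earlier results of these data known. Genes were named as the 10 largest rises and falls, the 5 largest gains and losses in CPM, up to 6 called members and any regulator of each list, the 6 genes furthest above and below both other genotypes, and the PP4 subunits. All but the list members and PP4 subunits needed at least 10 CPM in the higher genotype, at least 10 counts in every library of the lower one, calls with and without pp4r3a-2 replicate 3 and no overlapping gene. Other list members were picked for the text with their values in view, that is, chosen after the values were seen. Alternatives were other scalings, filters and thresholds, DESeq2 1.42.0, limma 3.58.1 (voom), a 1.5-fold test, the replicate number as a block, the 6 libraries alone and each library left out.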

Additional observations from a re-analysis of the deposited data

Results flagged for a closer look

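At least 2-fold higher in pp4r3a-2 than in both Col-0 and pp4r3a-1 were 206 genes (0.91%), and 210 (0.928%) were at least 2-fold lower. Of these, 12 were flagged, and their differences between the alleles come from edgeR's test of pp4r3a-2 against pp4r3a-1. The log2 differences of pp4r3a-2 over pp4r3a-1 were 2.66 for AT1G07400, 2.39 for HSP90.1, 2.67 for HSP70B, 1.83 for PR1, 1.72 for AT1G02660 and 1.59 for AACT1. They were -3.21 for COR15A, -2.16 for MBP1, -1.98 for AT3G05727, -1.84 for COR413IM1, -1.76 for PP4R3A and -1.91 for AT4G22490. These genes were named for standing furthest from both other genotypes among genes that met the naming conditions, so the differences describe them and are no separate evidence.

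The intron counts, which none of the comparisons used, differed between genotypes. There were 3.04 ± 0.0379 intron counts per 100 exon counts in pp4r3a-2, 3.23 ± 0.11 in pp4r3a-1 and 2.1 ± 0.0458 in Col-0 (SD, n = 3 each). Every library of both alleles lay above every Col-0 library.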

How the results depend on the processing

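Over the alternatives in scaling, filter, test, block and libraries, the 8065 higher and 8093 lower calls kept counts within 1.5 times. Counts at an adjusted p under 0.01 were 7115 and 7078. Leaving out each library in turn gave 7608 to 7780 higher and 7615 to 7803 lower genes, 1919 to 1988 and 1437 to 1508 past 2-fold, and 218 to 235 and 206 to 223 past 2-fold from both other genotypes, with PP4R3A at -2.15 to -2.12. The count at least 2-fold higher than both other genotypes was 129 under the stricter filter, which tests fewer genes, and the 1.5-fold test gave 2156 lower genes in place of 1412, since its threshold is smaller. Library size and upper quartile scaling lowered the share of calls that were higher to 45.1% and 44.1%, against 49.9%, and moved the median of all genes by -0.047 and -0.057. The replicate numbers only name the libraries: same-numbered pairs had correlations of 0, 0.014 and -0.039, and the fit with the replicate block called 8038 higher and 8069 lower. Of the list medians of at least 0.1, none changed sign under these alternatives; the seed maturation median was 0.80 without a filter, against 2.51, as genes with few counts then enter. The uncalled gene SOG1 changed sign, at -0.05, -0.06 and -0.01 under library size scaling, upper quartile scaling and the stricter filter, at -0.00 with 6 libraries only and at -0.04 to 0.07 without each library; the uncalled AT2G01010 was at -0.10 to 1.22 without each library; the causes were not tested. Depth limits genes near 0.116 to 0.149 CPM, where 3 counts lie.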
